A study of Mus musculus with 24 samples.

Results

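Bone morphogenetic proteins (BMPs) and transforming growth factor beta (TGF-beta) were followed in intestinal organoids through 10 genes of 45706 counted. They were taken by symbol from a given list, each was matched to its Ensembl identifier, and each was present in the small intestinal (SI) and the colonic (COL) count table. They comprise the targets Id1, Id2 and Id3, the inhibitory Smads Smad6 and Smad7, the BMP ligands Bmp2, Bmp4 and Bmp7, and the TGF-beta ligands Tgfb1 and Tgfb2.

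Organoids, epithelial cultures grown in gel from crypts, came from C57BL/6N mice with Villin::CreERT2, a Cre recombinase that is driven by the Villin promoter in intestinal epithelium and activated by 4-hydroxytamoxifen (4-HT). Besides this transgene, carried by every culture, the genotypes were BraffloxV600E/+ (called BRAF here), Trp53LSL-R172H/+ (p53) and both together (BRAFp53). The Braf allele encodes wild-type BRAF until Cre recombines it and BRAFV600E, a constitutively active kinase, thereafter. The Trp53 allele is silenced by a stop cassette until Cre removes it, and then encodes p53R172H, a dominant-negative mutant of the tumour suppressor. Organoids called on received 4-HT for 24 h, at 0.5 µM in SI and 3.5 µM in COL, and those called off received ethanol. RNA was isolated 8 days later from SI and 3 days later from COL. The age of the mice is not given in the sources used here. The 2 tissues, 3 genotypes and 2 states formed 12 groups of 2 libraries. For each genotype and tissue there was 1 donor culture, so the spread between the libraries of a group is that of handling and not of animals. A difference between genotypes cannot be told apart from one between cultures, and a difference between tissues cannot be told apart from one of culture, medium, 4-HT dose or day.

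BMPs bind paired type I and type II receptors, which phosphorylate Smad1, Smad5 and Smad9, while TGF-beta acts mainly through Smad2 and Smad3. Both groups of Smads enter the nucleus with Smad4. Id1, Id2 and Id3 encode inhibitors of basic helix-loop-helix transcription factors and are classical BMP targets, though other signals also act on them. Smad6 and Smad7 are induced by these pathways and inhibit them. In the intestine BMP signalling is high towards the villus and the surface epithelium and is held low at the crypt base by antagonists such as Noggin, which the culture medium supplied. Medium for COL organoids further contained Wnt3a and CHIR99021.

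RefSeq promoter windows (GRCm38.p6) were available for 6 of the 10 genes. Shown 5′ to 3′ on the strand of the gene are stretches upstream of the start of Bmp4, which was counted in COL and not in SI, of Id2, one of the targets that rose, and of Smad6, for which no group differed. That of Bmp4 is chr14:46390670-46390919, that of Smad6 is chr9:64022060-64022309 and that of Id2 is chr12:25096254-25096342, all on the minus strand, the last lying in an intron of a longer Id2 transcript. Capitals mark the motifs that were found.
Bmp4: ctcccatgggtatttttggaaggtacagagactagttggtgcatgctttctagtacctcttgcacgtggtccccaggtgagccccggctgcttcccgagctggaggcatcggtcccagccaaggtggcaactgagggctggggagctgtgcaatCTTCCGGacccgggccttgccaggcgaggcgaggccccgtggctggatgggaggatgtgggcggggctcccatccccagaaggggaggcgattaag
Id2: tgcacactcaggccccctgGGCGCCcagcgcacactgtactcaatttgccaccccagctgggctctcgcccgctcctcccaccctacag
Smad6: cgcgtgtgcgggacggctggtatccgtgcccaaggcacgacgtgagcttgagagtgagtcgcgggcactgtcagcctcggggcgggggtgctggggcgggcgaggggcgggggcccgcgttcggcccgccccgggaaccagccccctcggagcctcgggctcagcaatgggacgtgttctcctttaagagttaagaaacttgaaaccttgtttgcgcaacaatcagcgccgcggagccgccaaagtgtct
Searched on both strands were CAGAC, a core Smad binding element, GGCGCC, a GC-rich Smad1 and Smad5 element, TGANTCA, bound by AP-1, and CCGGAAG, bound by ETS factors, and no matches in these stretches overlapped. Bmp4 held CCGGAAG, read on the printed strand as CTTCCGG, 96 bases before its start, and Id2 held GGCGCC 231 bases before its start. CAGAC was found in windows not shown, in that of Id3 167 and 68 bases before the start and in that of Tgfb2 221 and 204 bases before it. All 250 bases of the Id3 window lie in an annotated exon. Of the Tgfb2 window 167 bases do, and both of its matches lie outside them. In the windows of Smad6 and Tgfb1 none of the 4 motifs was found. The motifs were searched over the whole 250 bases before each start, of which the Id2 stretch shows the 89 that lie outside annotated exons. Of 32851 promoter windows of 250 bases, 42.2% held CAGAC, 9.59% GGCGCC, 6.75% TGANTCA and 6.91% CCGGAAG. A match is only a match of letters and no binding was measured.

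Total counts ranged from 51.2 to 78.2 M (M, 1e6) over COL libraries and from 44.4 to 68.2 M over SI libraries. Levels are given in CPM, counts scaled to a library of 1e6, after TMM scaling within a tissue, and 3 counts, taken as the limit of detection, were 0.0408 to 0.0774 CPM. This limit covers counting error only, whereas the 95% CI of the fits cover the spread between libraries. Trp53 was higher on than off in p53-bearing organoids (log2 fold change 0.94 in COL p53, 0.94 in COL BRAFp53 and 0.52 in SI BRAFp53, all called, and 0.76 in SI p53, adjusted p = 0.194), and Braf was called in no genotype. Gene counts do not show the mutations themselves. One library stood apart. In SI BRAF on replicate 1 the X-inactivation transcript Xist was at 15.4 CPM, against 0.206 to 0.437 in the other 3 libraries of a culture that expressed Y-linked genes, and the stem cell gene Olfm4 was at 78.6 CPM against 9.08 in its replicate. For calls of members and of named genes that use this library, the value without it or whether it was still called is given. The joint fit of both tissues without it was an alternative chosen after seeing the data. SI p53 and SI BRAFp53 cultures had Xist at 104 to 150 CPM, whereas every COL culture expressed Y-linked genes. By these genes the SI and COL cultures of p53 and of BRAFp53 differed in sex, while the methods of the study name 3 donor mice for the organoids. The cause of this mismatch was not tested. The Y-linked gene Eif2s3y was at most at 0.128 CPM in COL BRAF and between 6.33 and 11.3 CPM in COL BRAFp53, against 68.2 to 80.9 CPM in COL p53 and 55.4 to 71.2 CPM in SI BRAF. The COL BRAF culture also had Gata4, a factor of proximal intestine, at 35.8 to 54.8 CPM in its 4 libraries, against at most 2.95 CPM in the other COL libraries. Markers of fibroblasts and muscle, endothelium and immune cells summed to at most 1.3, 1.42 and 1.64 CPM, against at least 4410 CPM for 5 epithelial markers.

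Id1, Id2 and Id3 were the most abundant members, and all of them rose in SI BRAF. In SI BRAF, Id1 was at 25.2 and 24.5 CPM off and at 55.3 and 52.2 CPM on. Id2 was at 49.8 and 40.9 CPM off and at 113 and 116 CPM on. Id3 was at 28.9 and 25.8 CPM off and at 84.2 and 90.2 CPM on. On libraries lay above off libraries for all 3, with little spread beside the shift, and on and off libraries of 63.2% of all genes did not overlap there. Id3 rose most, by 1.67 on the log2 scale (SE 0.16, 95% CI 1.33 to 2.02, edgeR quasi-likelihood test, Benjamini-Hochberg adjusted p = 5.65e-06), or 3.19-fold. Id2 rose by 1.34 (SE 0.19, adjusted p = 0.000174) and Id1 by 1.11 (SE 0.13, adjusted p = 2.92e-05). Without SI BRAF on replicate 1 the changes were 1.74 for Id3, 1.37 for Id2 and 1.09 for Id1, and all were called.

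Of the 7 members that passed the filter on low counts in SI, 5 rose and 0 fell in SI BRAF, where 31.7% of all genes tested were called and 17.5% were called as higher. Without on replicate 1 of SI BRAF 4 rose and 1 fell, as Smad7 was no longer called and Bmp7 was called as lower. The median log2 fold change of the 7 was 1.11, against -0.06 over all genes. Tgfb1, Tgfb2 and Bmp4 did not pass the filter in SI. The members that rose were the 3 Id genes, Bmp2 and Smad7. The cell composition of these organoids moved as well. Summed over 5 enterocyte markers, levels were 5180 and 4010 CPM off and 14400 and 15900 CPM on, 4 of the 5 being called as higher. The 4 stem cell markers summed to 326 and 356 CPM off and 129 and 38.2 CPM on, and 4 of 4 were called as lower. Of the Paneth cell markers 1 of 2 was called as lower, and of the goblet cell markers 1 of 3 as higher. Without on replicate 1 these counts were the same, except that the enterocyte marker Aqp8, with 0 counts in the on library that was left, was called as lower. Their part in the rise of the Id genes was not tested, and in bulk RNA fewer cells of a type and less RNA per cell cannot be told apart.

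**Figure D1:**
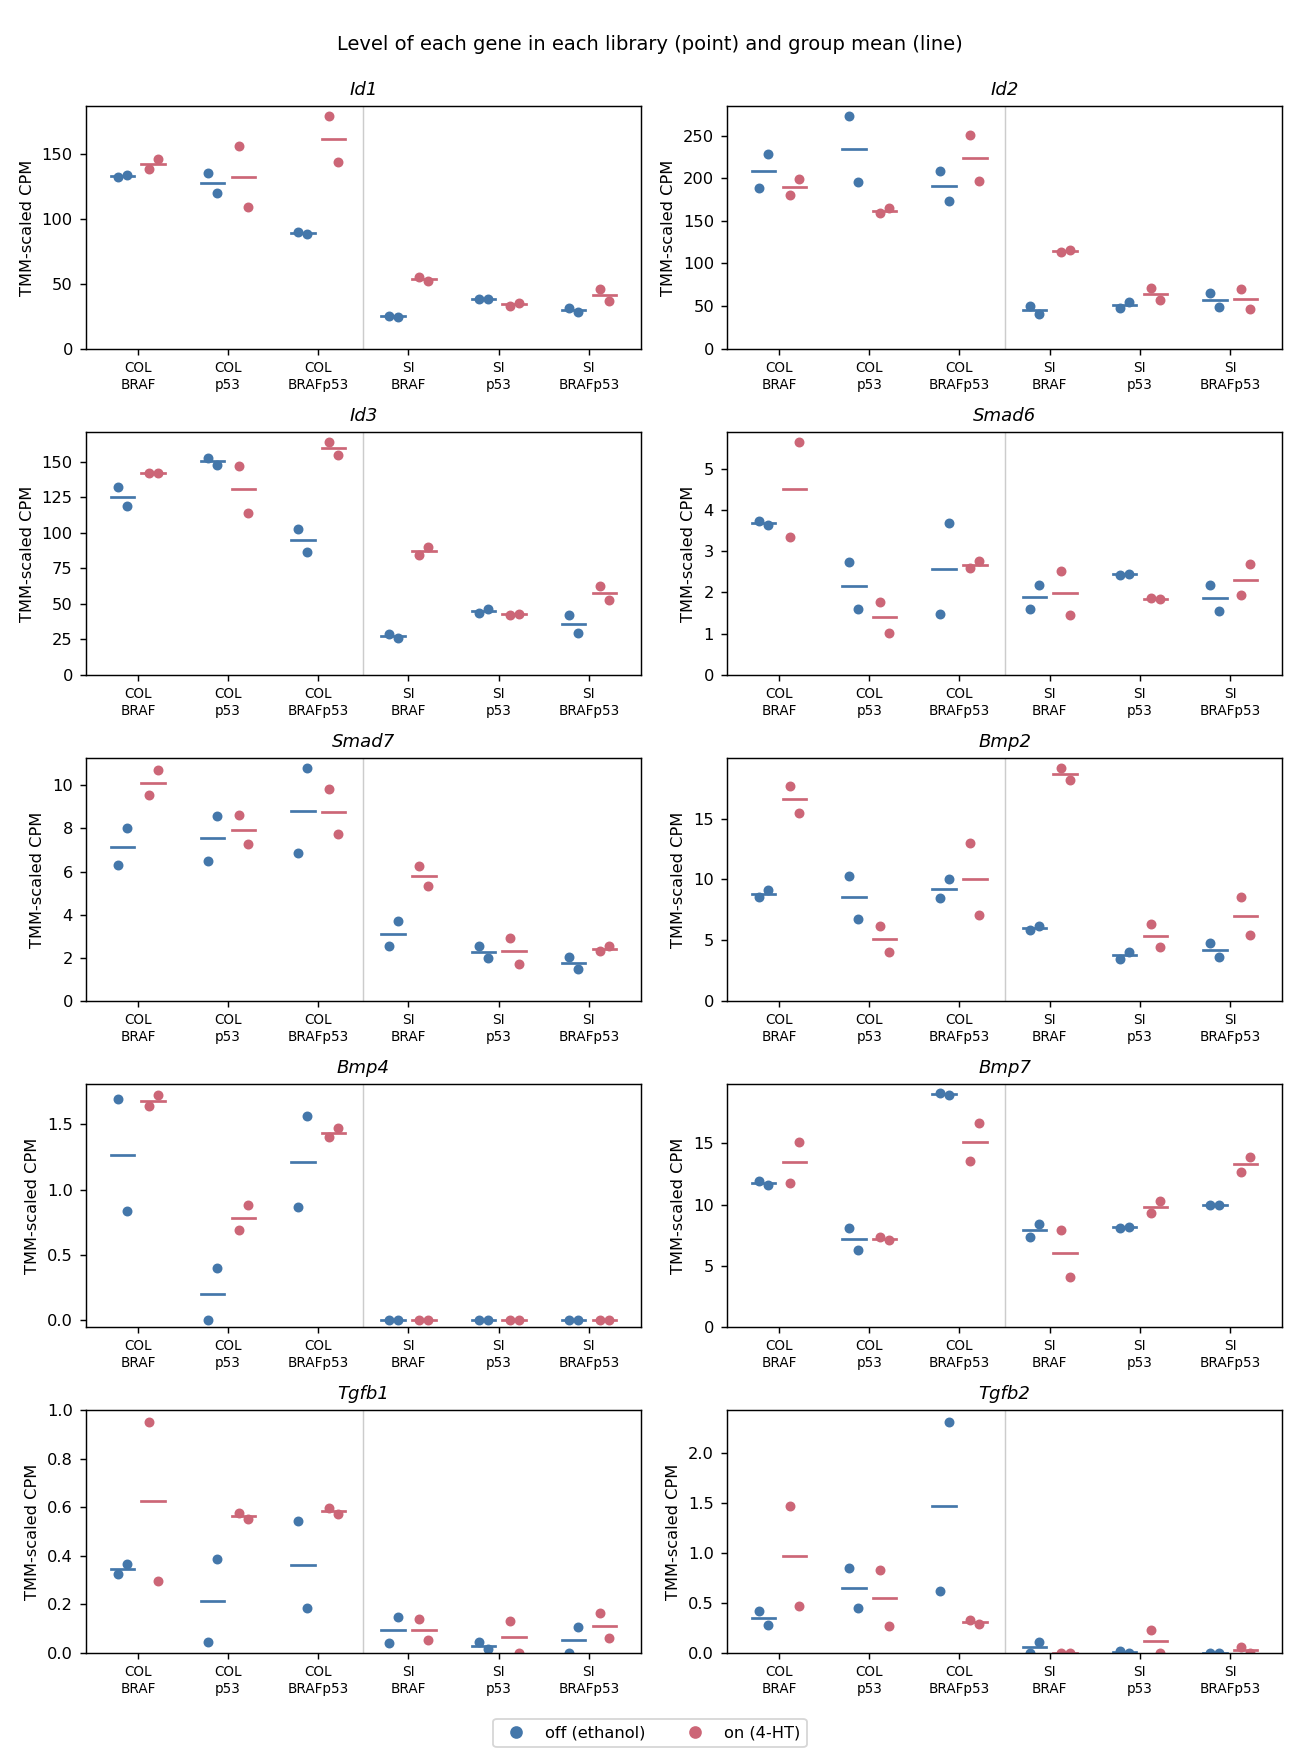
Level in TMM-scaled CPM (vertical axis, linear, scaled to each gene) of each of the 10 genes in all 24 libraries, by tissue and genotype, with off in blue and on in red. Points are libraries and lines are group means, and Id3 in SI BRAF lies at 84.2 and 90.2 CPM on against 28.9 and 25.8 CPM off.

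In SI BRAFp53, where both mutations were induced, Id1 and Id3 rose less and Id2 was not called. Id1 was at 31.6 and 27.9 CPM off and at 45.9 and 36.9 CPM on (log2 fold change 0.48, SE 0.13, adjusted p = 0.0287). Id3 was at 42.2 and 29.5 CPM off and at 62.5 and 52.4 CPM on (0.68, SE 0.16, adjusted p = 0.0124). Id2 was at 65.3 and 49.4 CPM off and at 69.9 and 46.9 CPM on, so its groups overlapped. On lay above off for Id1 and Id3, where the libraries of 54.8% of all genes did not overlap. By edgeR these 2 of 7 members tested were called (3 by DESeq2, which added Bmp2, and 2 by limma-voom), where 11.5% of all genes were called and 6.98% as higher. Both calls were lost without SI BRAFp53 on replicate 1 and without SI BRAFp53 off replicate 2, and that of Id1 also without off replicate 1 (adjusted p = 0.0664) and with only the 4 libraries compared (0.0513). Enterocyte markers summed to 6440 and 5800 CPM off and 7330 and 8510 CPM on, with 2 of 5 called as higher and 1, Aqp8, as lower. The 3 goblet cell markers summed to 113 and 126 CPM off and 305 and 386 CPM on, and 3 of 3 were called as higher. Stem cell markers summed to 271 and 379 CPM off and 206 and 180 CPM on, with 1 of 4, Ascl2, called as lower. The Paneth cell marker Mmp7 was called as higher, while the sum over both Paneth cell markers was 66.5 and 92 CPM off and 75 and 51.1 CPM on. The part of these cells in the result was not tested.

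In COL organoids the pattern across genotypes was different. Id1 was at 90 and 88.6 CPM in COL BRAFp53 off and at 179 and 144 CPM on. Id3 was at 103 and 86.6 CPM off and at 164 and 155 CPM on. Both rose, by 0.85 for Id1 (SE 0.16, 95% CI 0.51 to 1.2, adjusted p = 0.00333) and by 0.76 for Id3 (SE 0.13, 95% CI 0.47 to 1.04, adjusted p = 0.00239), and both were called under each of 11 alternative settings. By edgeR these 2 of 10 members tested were called in COL BRAFp53 (3 by DESeq2, which added Tgfb2, and 2 by limma-voom), where 17.7% of all genes were called and 9.95% as higher, and where the libraries of 57% did not overlap. Id2 was at 208 and 173 CPM off and at 251 and 197 CPM on and its groups overlapped. The off levels of Id1 and Id3 were lower in this culture than in the other COL cultures. Mean off levels of Id1 were 89.3 CPM in BRAFp53, 133 in BRAF and 127 in p53, and those of Id3 were 94.6, 126 and 151. Mean on levels in the same order were 161, 142 and 132 CPM for Id1 and 160, 142 and 130 for Id3. In COL BRAFp53 the 4 stem cell markers summed to 541 and 426 CPM off and 108 and 152 CPM on, and 3 of 4 were called as lower. Enterocyte markers summed to 1090 and 923 CPM off and 2620 and 1590 CPM on, with 2 of 5 called as higher, while Sis fell from 143 ± 15.9 to 26.9 ± 17.1 CPM. Goblet cell markers summed to 604 and 810 CPM off and 1530 and 1360 CPM on, and 2 of 3 were called as higher. Their part in the result was not tested.

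BRAFV600E alone called none of the Id genes in COL. In COL BRAF, Id1 was at 132 and 134 CPM off and at 138 and 146 CPM on. Id2 was at 189 and 228 CPM off and at 180 and 199 CPM on. Id3 was at 132 and 119 CPM off and at 142 and 142 CPM on. The log2 fold changes were 0.09, -0.14 and 0.18 (adjusted p = 0.744, 0.642 and 0.404). Of 10 members tested, 0 were called by edgeR in COL BRAF (1 at an unadjusted p under 0.05, 1 by DESeq2, 1 by limma-voom, Bmp2 each time), where 19.9% of all genes were called. The cell type markers moved here as well. Stem cell markers summed to 370 and 293 CPM off and 82.7 and 122 CPM on, and 3 of 4 were called as lower. Goblet cell markers summed to 674 and 653 CPM off and 1370 and 1270 CPM on, and 2 of 3 were called as higher. Of the enterocyte markers 3 of 5 were called as higher and 1 as lower, and of the Paneth cell markers 1 of 2 as higher. The part of these cells in the result was not tested.

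Induction of p53R172H alone called no member in either tissue. In COL p53, Id1 was at 135 and 120 CPM off and at 156 and 109 CPM on, and Id3 was at 153 and 148 CPM off and at 147 and 114 CPM on. Id2 was at 273 and 196 CPM off and at 159 and 165 CPM on, its on libraries lying below its off libraries, where the libraries of 39% of all genes did not overlap (log2 fold change -0.54, adjusted p = 0.339). In SI p53, Id1 was at 38.1 and 38.5 CPM off and at 32.8 and 35.4 CPM on. There Id2 was at 48.2 and 54.8 CPM off and at 71.3 and 57.2 CPM on, and Id3 was at 43.5 and 46.3 CPM off and at 42.3 and 43.1 CPM on. Of all genes tested, 0.142% were called in COL p53 and 0 in SI p53 by edgeR, with 873 genes of SI p53 at an unadjusted p under 0.05, 65 called by DESeq2 and 1 by limma-voom. DESeq2 and limma-voom called 0 members in both. At an unadjusted p under 0.05 there were 2 members in COL p53 and 0 in SI p53.

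**Figure D2:**
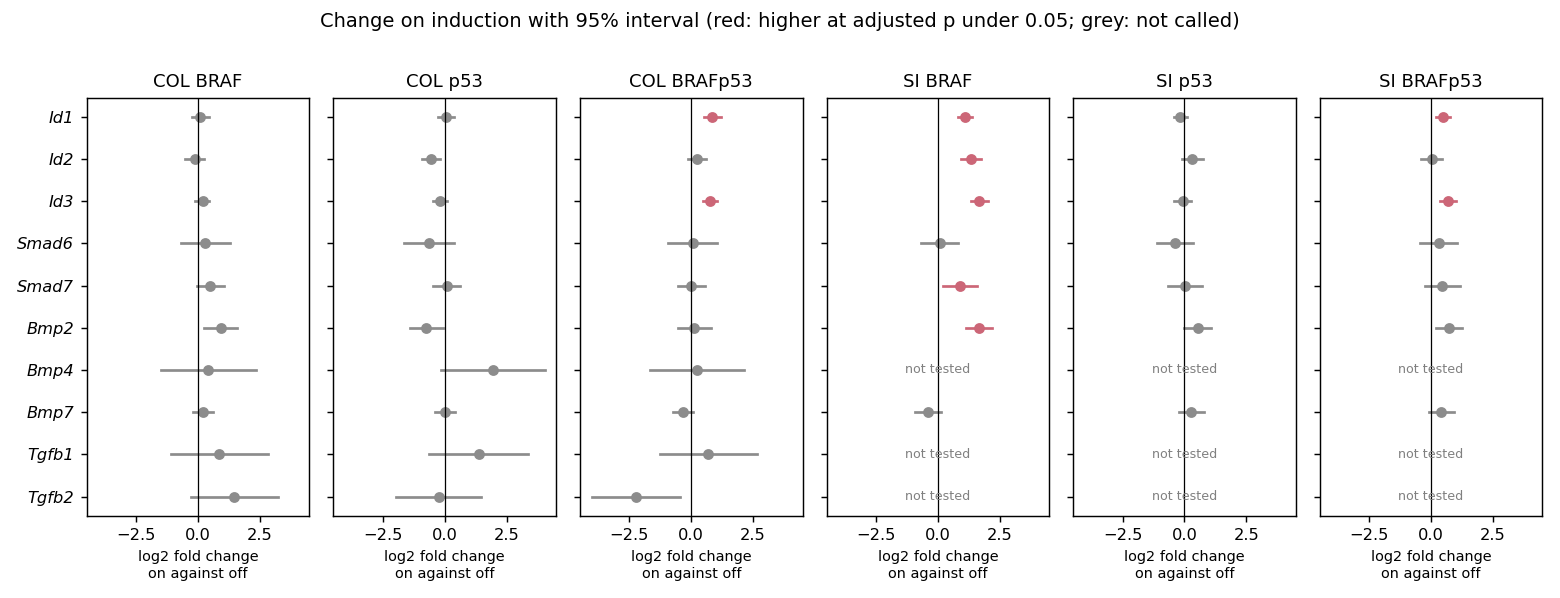
Log2 fold change of on against off (horizontal axis) for each member in the 6 combinations of tissue and genotype, with 95% CI as lines, red where called as higher by edgeR at an adjusted p under 0.05 and grey where not called. Id3 in SI BRAF lies at 1.67 with an interval of 1.33 to 2.02, no member is called in COL BRAF or in either p53 genotype, and Bmp4, Tgfb1 and Tgfb2 were not tested in SI.

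The inhibitory Smads were present at low levels. Smad7, which blocks receptors of both the BMP and TGF-beta branches, was at 2.53 and 3.69 CPM in SI BRAF off and at 6.25 and 5.34 CPM on. It rose by 0.89 (SE 0.31, 95% CI 0.21 to 1.57, adjusted p = 0.0449), but the call was lost when any one of the 4 libraries was left out (0.65 to 1.19, the former without off replicate 1 at an adjusted p of 0.25, and 0.8 at 0.144 without on replicate 1). It was not called in the other genotypes. In COL BRAF its groups did not overlap, with 6.3 and 8.01 CPM off and 9.55 and 10.7 CPM on (0.5, adjusted p = 0.194), where the libraries of 60% of all genes did not overlap. In COL p53 it was at 6.5 and 8.58 CPM off and at 8.63 and 7.26 CPM on, and in COL BRAFp53 at 6.86 and 10.8 CPM off and at 9.82 and 7.75 CPM on. SI p53 had 2.53 and 1.98 CPM off and 2.93 and 1.69 CPM on, and SI BRAFp53 had 2.05 and 1.46 CPM off and 2.31 and 2.53 CPM on. Smad6, which acts mainly on the BMP branch, lay between 1.01 and 5.66 CPM in every library and was called in no genotype. In SI BRAF it was at 1.6 and 2.19 CPM off and at 2.52 and 1.45 CPM on, so its groups overlapped (0.07, adjusted p = 0.906).

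Among Bmp2, Bmp4 and Bmp7, Bmp2 was the one called with BRAFV600E, and this in SI. In SI BRAF it was at 5.8 and 6.12 CPM off and at 19.2 and 18.2 CPM on, a rise of 1.65 (SE 0.24, 95% CI 1.12 to 2.18, adjusted p = 0.000215) or 3.14-fold, which stayed at 1.63 without replicate 1 of the on group. In COL BRAF it was at 8.52 and 9.09 CPM off and at 17.7 and 15.5 CPM on. This difference missed the threshold (0.92, SE 0.3, 95% CI 0.25 to 1.58, adjusted p = 0.0529) and passed it under 7 of 11 alternatives, whose adjusted p ran from 0.00223 to 0.216. In SI BRAFp53, Bmp2 was at 4.78 and 3.63 CPM off and at 8.52 and 5.43 CPM on (0.73, adjusted p = 0.0757), called in 3 of 11 alternatives, one of them without on replicate 2 (1.02, adjusted p = 0.0371), whose adjusted p ran from 0.0242 to 0.479. The groups overlapped in COL BRAFp53, with 8.46 and 10 CPM off and 13 and 7.05 CPM on. In COL p53 it was at 10.3 and 6.73 CPM off and at 6.16 and 4.01 CPM on (-0.74, adjusted p = 0.527), the on libraries being the lower, and in SI p53 it was at 3.45 and 4.01 CPM off and at 6.35 and 4.4 CPM on.

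Bmp7, another BMP ligand of epithelia, was called in no genotype. It was highest in COL BRAFp53, at 19.1 and 19 CPM off and at 13.6 and 16.7 CPM on, the on libraries being the lower. COL p53 had 8.11 and 6.3 CPM off and 7.32 and 7.12 CPM on. COL BRAF had 11.9 and 11.6 CPM off and 11.8 and 15.1 CPM on. These COL cultures thus differed among themselves before induction. In SI BRAF it was at 7.34 and 8.43 CPM off and at 7.95 and 4.05 CPM on (-0.39, adjusted p = 0.256). The on libraries disagreed, and without replicate 1 the change was -0.94 and was called (adjusted p = 0.00353). In SI BRAFp53, Bmp7 was at 9.95 and 9.93 CPM off and at 12.7 and 13.9 CPM on, and in SI p53 at 8.06 and 8.2 CPM off and at 9.33 and 10.3 CPM on. On libraries were the higher in both, without a call, and in SI p53 the libraries of 35.5% of all genes did not overlap.

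Bmp4, which in the gut is mainly a product of the mesenchyme, had 0 counts in all 12 SI libraries. In COL it was detected in 11 of 12 libraries, at up to 1.72 CPM. COL BRAF had 1.69 and 0.839 CPM off and 1.64 and 1.72 CPM on, and COL BRAFp53 had 0.869 and 1.56 CPM off and 1.4 and 1.47 CPM on. COL p53 was the lowest, with 0 and 0.402 CPM off and 0.694 and 0.878 CPM on. No COL genotype had a called change, though COL p53 was called without off replicate 2, when the off library left had 0 counts. Bmp4 shares 89 exonic bases with Gm15217 on the other strand, and the use of strand in counting is not given in the sources used here.

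The TGF-beta ligands were low, and in SI near the limit of detection. Tgfb1 had 0 to 9 counts in the SI libraries and Tgfb2 0 to 16 counts, and neither was tested there. In COL, Tgfb1 was at 0.326 and 0.367 CPM off and at 0.953 and 0.298 CPM on in BRAF, at 0.044 and 0.387 CPM off and at 0.576 and 0.552 CPM on in p53, and at 0.543 and 0.183 CPM off and at 0.599 and 0.573 CPM on in BRAFp53. It was not called in any of them. Tgfb2 in COL BRAFp53 was at 0.621 and 2.31 CPM off and at 0.327 and 0.287 CPM on (-2.25, adjusted p = 0.0794), a value that rests on off replicate 2, without which it was -1.01 (adjusted p = 0.518). It was called in 4 of 11 alternatives, one of them without off replicate 1 (-2.9, adjusted p = 0.0381), whose lowest adjusted p was 0.016. COL BRAF had 0.42 and 0.28 CPM off and 1.47 and 0.468 CPM on, and COL p53 had 0.851 and 0.447 CPM off and 0.827 and 0.269 CPM on. Tgfb2 shares 124 exonic bases with the antisense gene Gm29491.

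Per kilobase of exon, a scale on which genes can be set side by side, Id1 led in COL BRAF off with 114 CPM per kb, followed by Id2 with 85.5 and Id3 with 70.1. The ligands and inhibitory Smads were far lower, with Bmp7 at 2.91, Bmp2 at 2.48, Smad7 at 1.58, Smad6 at 1.15, Bmp4 at 0.564, Tgfb1 at 0.0688 and Tgfb2 at 0.0604 CPM per kb. SI BRAF off had the same order for the 7 members tested, from Id1 at 21.4, Id2 at 18.6 and Id3 at 15.3 to Bmp7 at 1.96, Bmp2 at 1.68, Smad7 at 0.688 and Smad6 at 0.591 CPM per kb. In the other off groups the Id genes led the ligands too, but the order within each set varied. In COL BRAFp53 off Id2 was at 78.3 and Id1 at 77 CPM per kb, and in SI p53 off Id3 was at 25.1 and Id2 at 21.1. In COL p53 off Bmp2 was at 2.39 and Bmp7 at 1.79 CPM per kb.

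Whether p53R172H altered the BRAF response was asked from the difference of the responses (BRAFp53 minus BRAF) and so also compares donor cultures. In SI the response was lower in BRAFp53 for Id2 (-1.31, adjusted p = 0.00988), for Id3 (-0.99, adjusted p = 0.0146) and for Id1 (-0.64, 95% CI -1.03 to -0.25, adjusted p = 0.0471). These were 3 of 7 members, where 8.2% of all genes were called and 6.28% were called as lower. The difference for Id2 was called in 12 of 14 alternatives, that for Id3 in 11 and that for Id1 in 5. No member was called without SI BRAF off replicate 2 or without SI BRAFp53 off replicate 1, and without SI BRAF on replicate 1 Id1 was not called (-0.6, adjusted p = 0.072) while Id2 and Id3 were. Bmp2 differed by -0.92 (adjusted p = 0.127) and Smad6 and Smad7 were not called. Bmp7 differed by 0.8 (adjusted p = 0.177), and by 1.37 without SI BRAF on replicate 1 (adjusted p = 0.00461).

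In COL the same contrast called 0 members by edgeR (3 at an unadjusted p under 0.05, 3 by DESeq2, 0 by limma-voom), where 0.907% of all genes were called. Id1 differed by 0.76 (adjusted p = 0.104) and Id3 by 0.58 (adjusted p = 0.126), with the larger values in BRAFp53. Tgfb2, also at an unadjusted p under 0.05, differed by -3.72 (adjusted p = 0.118). Against p53 alone, the SI BRAF response was higher for Id3 by 1.75 (adjusted p = 0.00018), for Id1 by 1.28 (adjusted p = 0.000416), for Bmp2 by 1.12 (adjusted p = 0.039) and for Id2 by 1.02 (adjusted p = 0.0197), where 17.7% of all genes were called and 11.2% as higher. Id2 was called in 10 of 14 alternatives, losing its call without on replicate 2 or off replicate 2 of either genotype (0.88 to 0.99). Bmp2 was called in 7 of 14 alternatives, losing its call without any of the 8 libraries but SI p53 on replicate 1 (0.9 to 1.22). It had an adjusted p of 0.062 without SI BRAF on replicate 1, where the 3 Id genes were still called and Bmp7 was called as lower (-1.22, adjusted p = 0.00405). In COL the contrast of BRAF with p53 called 0 members by edgeR (1 at an unadjusted p under 0.05, 1 by DESeq2 and 1 by limma-voom), Bmp2 being nearest with 1.66 (adjusted p = 0.0516), where 4.51% of all genes were called. The contrasts in a tissue share the BRAF libraries, so they are not independent.

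**Figure D3:**
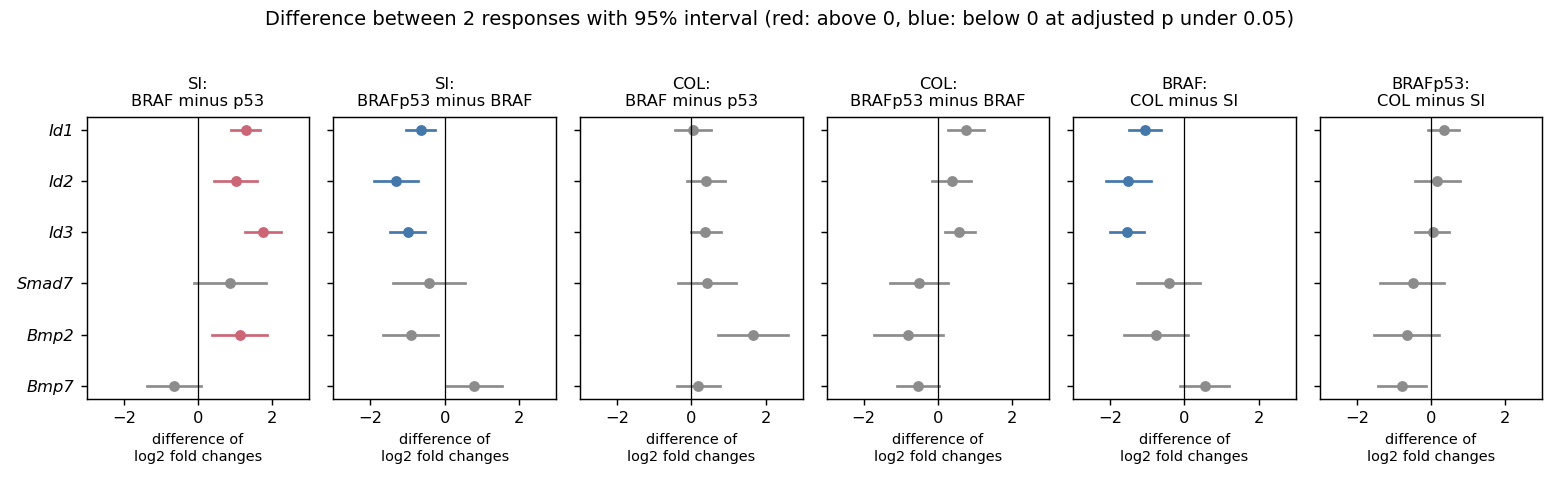
Difference of 2 log2 fold changes (horizontal axis) with 95% CI as lines, between genotypes within a tissue and between COL and SI, for Id1, Id2, Id3, Smad7, Bmp2 and Bmp7, red where called above 0, blue where called below 0 and grey where not called. The 3 Id genes lie below 0 for BRAFp53 minus BRAF in SI and for COL minus SI in BRAF, with Id3 at -0.99 and -1.54.

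Between tissues the BRAF responses of all 3 Id genes differed. The COL response minus the SI response was -1.54 for Id3 (adjusted p = 0.000164), -1.52 for Id2 (adjusted p = 0.00184) and -1.06 for Id1 (adjusted p = 0.00209), in a fit of all 24 libraries where 10.7% of genes were called and 7.4% as lower in COL. Under 7 of 7 alternatives these 3 genes were called, but no library other than SI BRAF on replicate 1 was left out. Without SI BRAF on replicate 1 they were at -1.6, -1.54 and -1.03, all called, and Bmp7 was called as higher in COL (1.1, adjusted p = 0.0173). The COL and SI cultures also differ in medium, dose and day, and the COL BRAF culture in Gata4 and Eif2s3y, so that tissue cannot be told apart from these. For BRAFp53, no member differed between tissues by edgeR (1 at an unadjusted p under 0.05, 0 by DESeq2 and 0 by limma-voom), where 3.52% of all genes were called. There the difference was 0.34 for Id1 (95% CI -0.09 to 0.76), 0.17 for Id2 and 0.04 for Id3 (95% CI -0.42 to 0.49).

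Off organoids already differed between tissues, with the levels of 3 COL cultures set against 3 SI cultures, each summed over its 2 libraries. Id2 was at 201 ± 22.1 CPM in COL and 58.1 ± 7.24 CPM in SI (mean ± SD, n = 3, log2 fold change 1.79, edgeR adjusted p = 0.00117). Id1 was at 111 ± 22.5 and 35.1 ± 7.87 CPM (1.66, adjusted p = 0.00342) and Id3 at 118 ± 27.2 and 40.8 ± 10.3 CPM (1.53, adjusted p = 0.00556). Single COL cultures held Id1 at 85.1 to 126 CPM and single SI cultures at 28.1 to 43.6 CPM. For Id2 these ranges were 182 to 225 and 50.6 to 65 CPM, and for Id3 90.1 to 144 and 30.6 to 51.2 CPM. The share of all genes whose cultures do not overlap between tissues was not counted. Smad7 was at 7.46 ± 0.872 CPM in COL and 2.72 ± 0.816 CPM in SI (1.45, adjusted p = 0.0102, and 0.0506 without the SI p53 culture). All 3 targets and Smad7 were thus higher in COL before any induction. Smad6, at 2.68 and 2.36 CPM, and Bmp7, at 12.1 ± 5.67 and 9.84 ± 1.24 CPM, were not called.

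Of the ligands in off organoids, Bmp2 was at 8.43 ± 0.346 CPM in COL and 5.26 ± 1.32 CPM in SI (0.68, adjusted p = 0.0651, and 0.0361 without the SI BRAF culture). Bmp4 was counted 157, 27 and 158 times in the COL cultures BRAF, p53 and BRAFp53 and 0 times in each SI culture. Against the limit of 3 counts per SI culture it was at least 27.6-fold higher in COL. Tgfb1, with 42, 29 and 47 counts in COL, had 11, 4 and 6 counts in SI. Tgfb2, with 43, 88 and 191 counts in COL, had 7, 1 and 0 counts in SI. These 3 genes passed the filter on low counts only through COL, where they are high, so no test of them is given. Of the 7 members that also passed this filter in SI, edgeR called Id1, Id2, Id3 and Smad7, all higher in COL (DESeq2 and limma-voom added Bmp2), where 29.6% of all genes were called and 17% were called as higher in COL. Markers of fibroblasts and muscle summed to at most 1.3 CPM, and the part of such cells in the Bmp4 counts was not tested.

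**Figure D4:**
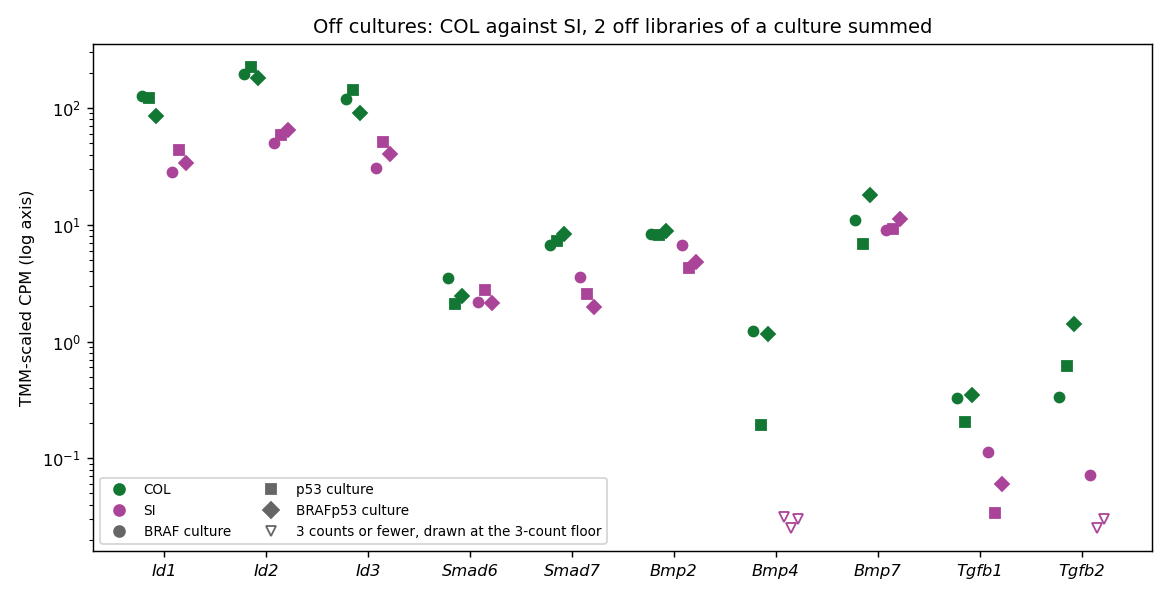
Level in TMM-scaled CPM (log axis) of each member in the off organoids of 3 COL cultures (green) and 3 SI cultures (purple), each point being the sum of 2 libraries of a culture, with shapes for genotypes and open triangles at the 3-count limit where a culture had 3 counts or fewer. Id2 lies at 182 to 225 CPM in COL cultures and at 50.6 to 65 CPM in SI cultures, and Bmp4 had 0 counts in SI.

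Across libraries Id1 and Id3 varied together. After the mean of each tissue was taken off, Id3 had the highest Pearson r with Id1 of 8095 genes over 24 libraries (0.928, and 0.89 in COL and 0.98 in SI alone), followed by Got1 (0.885), Gpx4 (0.875), Por (0.87) and Wfs1 (0.868). Id2 followed Id1 less in COL (r = 0.3) than in SI (0.8). For Bmp4, which lay below the level asked of the genes compared and had 0 counts in SI, the 5 genes of highest r over the 24 libraries were Sart1, Eif3b, Fut8, Gar1 and Atp13a1 (0.849 to 0.868). In the 12 COL libraries alone their r was 0.88 to 0.93, with Atp13a1 the nearest of the 5. Libraries share cultures and states, and these values are descriptions.

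Among 73 other genes of the pathway, listed by role, 60 were tested in COL and 50 in SI. The list was chosen with earlier results of these data known, so its shares are descriptions. In COL BRAF 14 rose and 5 fell, in COL BRAFp53 7 rose and 6 fell, in SI BRAF 9 rose and 6 fell, and in SI BRAFp53 7 rose and 5 fell. These were 31.7%, 21.7%, 30% and 24% of the list genes tested, against 19.9%, 17.7%, 31.7% and 11.5% of all genes, so that the share in SI BRAF lay near that of all genes. DESeq2 called 17 as higher and 6 as lower in COL BRAF, 11 and 9 in COL BRAFp53, 10 and 5 in SI BRAF, and 8 and 5 in SI BRAFp53. In COL p53 and SI p53 edgeR called 0, with 9 and 5 of them at an unadjusted p under 0.05, 2 and 0 called by DESeq2 and 0 in both by limma-voom. Without SI BRAF on replicate 1 9 rose and 5 fell in SI BRAF. In at least 1 of the 4 BRAF-bearing combinations 31 were called, and 4 were called in every one of them. Acvr1c, a type I receptor of nodal and activins, fell in all of them, by 1.86 in COL BRAF (SE 0.45) and by 2.44 in SI BRAF (SE 0.26), or 2.83 without on replicate 1. Nbl1, an extracellular BMP antagonist, rose by 2.94 in COL BRAF, from 1.93 ± 0.486 to 14.8 ± 2.26 CPM (n = 2), and by 2 in SI BRAF, or 2.05 without on replicate 1. Furin, a protease that matures BMP and TGF-beta precursors, and Itgav, an integrin subunit that takes part in releasing latent TGF-beta, rose by 0.51 to 1.08 in these combinations, and without on replicate 1 by 0.73 and 0.54 in SI BRAF, both called.

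By role, in COL BRAF 1 of 10 receptors, 0 of 6 Smads, 4 of 9 other ligands, 3 of 10 antagonists or modulators, 4 of 10 genes of latency and activation and 7 of 15 other targets or feedback genes were called, against 19.9% of all genes. These counts are small, and no difference between combinations was tested. In COL BRAFp53 2 of 10 receptors, 1 of 6 Smads, 3 of 9 other ligands, 3 of 10 antagonists or modulators, 2 of 10 genes of latency and activation and 2 of 15 other targets or feedback genes were called, against 17.7% of all genes. In SI BRAF these were 4 of 11, 1 of 5, 0 of 6, 3 of 6, 2 of 7 and 5 of 15, against 31.7% of all genes. In SI BRAFp53 they were 2 of 11, 1 of 5, 1 of 6, 3 of 6, 2 of 7 and 3 of 15, in the same order of roles, against 11.5%. Bmp8b, another BMP ligand, rose by 2.6 in COL BRAF, from 7.61 ± 0.205 to 46 ± 6.25 CPM, and by 1.86 in COL BRAFp53. Gdf15, a stress-induced ligand of this family, rose by 2.27 and 2.41 in the same organoids. Rgmb, a BMP co-receptor, fell by 1.27 in COL BRAF, by 1.41 in COL BRAFp53 and by 1.37 in SI BRAF, whereas Neo1, the receptor of such co-receptors, rose by 1.08 in SI BRAF and by 0.64 in SI BRAFp53. Tgfbr1, the type I receptor of TGF-beta, fell in COL BRAFp53, SI BRAF and SI BRAFp53 by 0.71, 0.75 and 0.6. Without SI BRAF on replicate 1 the SI BRAF values were -1.34 for Rgmb, 1.35 for Neo1 and -0.92 for Tgfbr1, and all were called.

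Other targets moved in both directions. In COL BRAF, where no member was called, Id4 rose by 2.2 from 0.409 ± 0.257 to 1.9 ± 0.387 CPM, and Tgif2, a repressor of TGF-beta responses, fell by 2.32. Id4 also rose in COL BRAFp53, by 2.01. In SI, Tgfbi, an extracellular matrix protein named for its induction by TGF-beta, rose by 1.55 in BRAF and fell by 0.85 in BRAFp53, and the responses differed (-2.4, adjusted p = 0.000481). Without SI BRAF on replicate 1 Tgfbi rose by 1.76 in SI BRAF and the difference was -2.6 (adjusted p = 0.000274).

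**Figure D5:**
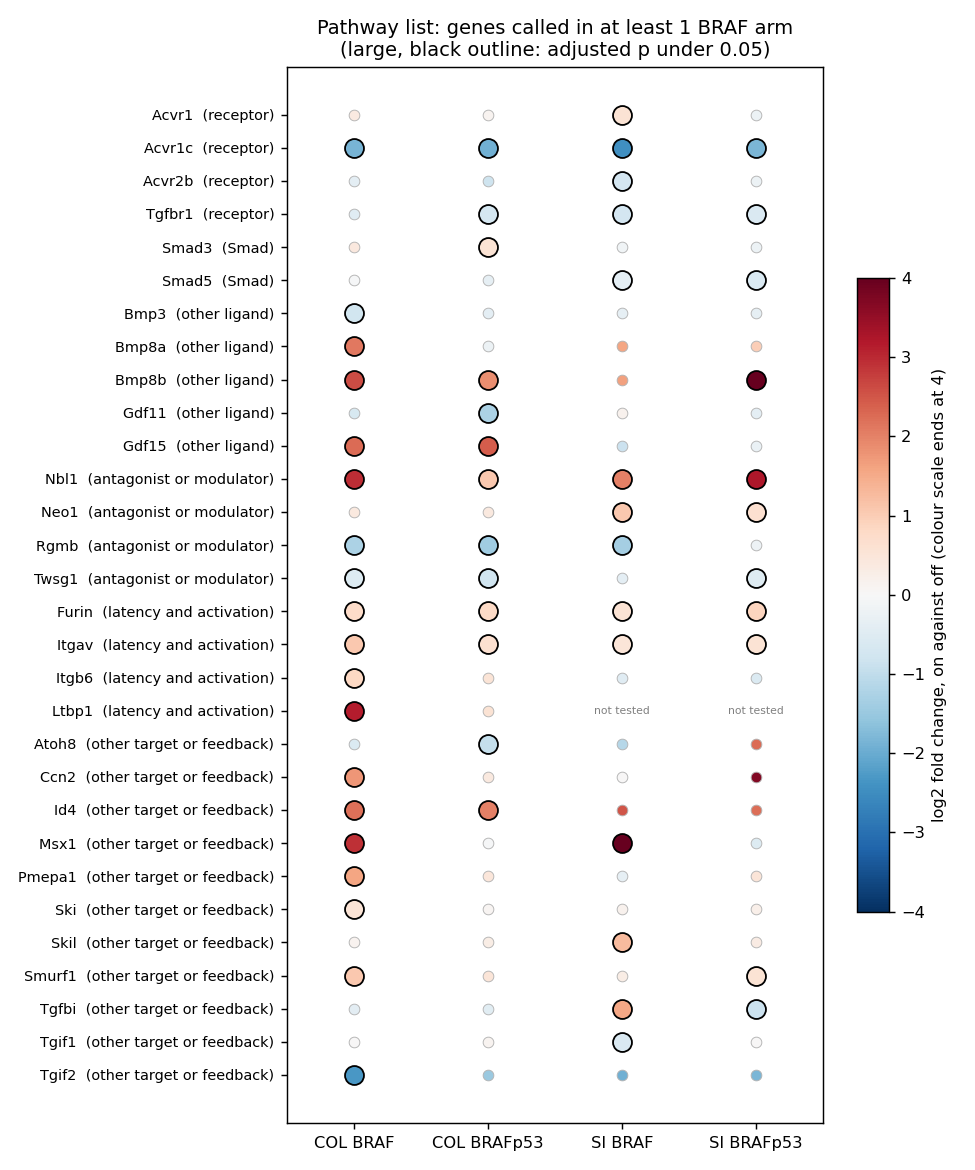
Of the 31 of 73 other pathway genes called in at least 1 combination with BRAFV600E, 30 are drawn (rows, with their role) in the 4 such combinations (columns), coloured by the log2 fold change of on against off, with the colour scale ending at 4. Large outlined points are called at an adjusted p under 0.05, and Acvr1c, Nbl1, Furin and Itgav are called in every column.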

How the data were processed

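RNA-seq of 24 organoid libraries was analysed. Per the submitters' processing notes and the methods of the study, the authors trimmed reads with Trimmomatic 0.36, aligned them with STAR 2.5.2b to the mouse genome (mm10 per the methods, while the notes name mm9 too) and deposited raw counts per Ensembl gene, not normalized, with a column for each library. Which annotation was used, and whether strand was, is not given in the sources used here.

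Of 45706 identifiers, 45143 matched GENCODE release M21 (GRCm38) and 563 did not. The latter stayed in the fits. Counts were filtered with filterByExpr, scaled by TMM and fitted with edgeR 4.0.16 (glmQLFit, glmQLFTest, R 4.3.3), all 12 libraries of a tissue in one fit, all 24 for responses between tissues, and 2 off libraries summed per culture for off COL against off SI. A call needs a p under 0.05 after Benjamini-Hochberg adjustment over all genes tested, and 3 counts were taken as the limit of detection. Intervals of fits are 95% CI. Alternatives were RLE scaling, other filters, DESeq2 1.42.0, limma-voom (limma 3.58.1), a replicate block, only the 4 libraries of a comparison, and each library left out. Libraries were left out in turn in the fits of a single tissue, and cultures for off COL against off SI. From the fit of all 24 libraries only SI BRAF on replicate 1 was left out. Replicate numbers did not pair libraries. Total counts differed between libraries and no library repeated another.

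The members, the pathway list and the markers were chosen with earlier results of these data known. From the pathway list at most 3 genes per role and comparison were named, those with the largest absolute log2 fold change among the called, except 1 gene that is not reported here. For Id1 and Bmp4 the 5 genes with the highest Pearson r were named, at an average log2 CPM of at least 3. Xist, Y-linked genes, Gata4 and Olfm4 were read to examine the libraries.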

Additional observations from a re-analysis of the deposited data

Results flagged for a closer look

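A difference of responses between groups was found by the test of the difference itself for 4 members. In SI, the BRAFp53 response minus the BRAF response was -0.64 for Id1, -1.31 for Id2 and -0.99 for Id3 on the log2 scale, from on against off changes of 0.48, 0.03 and 0.68 in BRAFp53 and 1.11, 1.34 and 1.67 in BRAF. In SI, the BRAF response minus the p53 response was 1.28 for Id1, 1.02 for Id2, 1.75 for Id3 and 1.12 for Bmp2. Both contrasts use the same SI BRAF libraries, of which on replicate 1 held 15.4 CPM of Xist, and without it Id1 lost its call in the first (-0.6, adjusted p = 0.072) and Bmp2 in the second (1.09, adjusted p = 0.062), while the other values were still called by edgeR and Bmp7 gained a call in both (1.37 and -1.22). The COL response minus the SI response in BRAF was -1.06 for Id1, -1.52 for Id2 and -1.54 for Id3. Enterocyte markers, summed, went from 1070 and 1090 CPM off to 2340 and 1970 CPM on in COL BRAF, where 3 of 5 were called as higher and Sis fell from 466 ± 46.3 to 236 ± 23.4 CPM, and from 5180 and 4010 to 14400 and 15900 CPM in SI BRAF, where 4 of 5 were called as higher, as they were without on replicate 1, when Aqp8 was called as lower. Of the stem cell markers 3 of 4 were called as lower in COL BRAF and 4 of 4 in SI BRAF. Of the goblet cell markers 2 of 3 were called as higher in COL BRAF and 1 of 3 in SI BRAF. The part of these cells in these differences was not tested. The genotypes also differ in donor culture, and the tissues in medium, 4-HT dose and day.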

How the results depend on the processing

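Of 1228 log2 fold changes of members under the alternatives, 1147 kept their side of the threshold, 36 passed it newly, 45 no longer passed it and 0 called values reversed. Among the 1147 there were 52 uncalled values that changed sign. The rises of Id1, Id2, Id3 and Bmp2 in SI BRAF and those of Id1 and Id3 in COL BRAFp53 were called under every alternative that was run. So were the differences of the 3 Id genes between COL and SI in BRAF. There the only library left out was SI BRAF on replicate 1, so their dependence on other single libraries was not tested. In COL BRAF 1 member, Bmp2, in place of 0 was called with RLE scaling, without a filter, with at least 10 counts in every library, with DESeq2, with limma-voom, with the replicate block and with only the 4 libraries compared. In COL p53 the count over all genes was 27 and became 569 without a filter, 324 with DESeq2, 15 with the block and 14 with only the 4 libraries, and 1 member was called without a filter. For BRAFp53 minus BRAF in COL the 172 genes became 1312 without a filter, 391 with at least 10 counts, 1364 with DESeq2 and 17 with the block, and the 0 members became 3 without a filter and 3 with DESeq2. For BRAF minus p53 in COL the 855 genes became 1958 without a filter, 1895 with DESeq2 and 528 with the block, and 1 member in place of 0 was called without a filter, with at least 10 counts, with DESeq2 and with limma-voom. In SI p53 the 0 genes became 155 without a filter, 65 with DESeq2, 1 with limma-voom and 17 with only the 4 libraries. In SI BRAFp53 1 member in place of 2 was called with only the 4 libraries. For BRAFp53 minus BRAF in SI the 1383 genes became 2108 with DESeq2. For COL minus SI in BRAFp53 the 693 genes became 1548 without a filter and 1580 with DESeq2. For off COL against off SI 4 members in place of 7 were called with at least 10 counts, the 7 including Bmp4, Tgfb1 and Tgfb2, which passed the main filter only through COL. The cause of these changes was not tested.

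With 1 library left out at a time, the called genes ranged from 1961 to 2489 in COL BRAF (members 0), from 0 to 56 in COL p53 (members 0 to 1), from 1699 to 2399 in COL BRAFp53 (members 2 to 3), from 3573 to 5343 in SI BRAF (members 4 to 5) and from 887 to 1333 in SI BRAFp53 (members 0 to 3), and stayed at 0 in SI p53. For BRAFp53 minus BRAF they ranged from 0 to 279 in COL (members 0) and from 597 to 2128 in SI (members 0 to 3), and for BRAF minus p53 from 264 to 1440 in COL (members 0 to 1) and from 1881 to 3927 in SI (members 2 to 4). With 1 culture left out they ranged from 2479 to 5381 for off COL against off SI (members 4 to 8 with Bmp4, Tgfb1 and Tgfb2, which are not counted as calls in the text, and 3 to 5 of the other 7). A lone library left in a group was taken to vary like the other groups. Without SI BRAF on replicate 1, an alternative chosen after seeing the data for COL minus SI in BRAF, 1833 genes and 4 members were called. Besides libraries named with the results, COL p53 on replicate 1 and off replicate 2 each gave 1 member for BRAF minus p53 in COL, and SI BRAFp53 off replicate 1 and on replicate 2 each left 1 member, in SI BRAFp53 and in BRAFp53 minus BRAF.

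Replicate numbers did not pair libraries, the deviations of same-numbered libraries correlating at -0.06 to 0.08 within cultures. With a replicate block 2 in place of 3 members differed for BRAFp53 minus BRAF in SI (Id1 at an adjusted p of 0.0545), and Bmp2 was called in COL BRAF (adjusted p = 0.0436). Bmp4, Tgfb1 and Tgfb2 did not pass the main filter on low counts in SI, so their changes on induction were not tested there with it.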
